A study of Mus musculus with 2 samples.

Results

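Cxcl16, Cxcr6, Adam10 and Adam17 encode a chemokine, its receptor and the pair of proteases that release the chemokine from the cell surface, and they are 4 of the 31055 genes counted in immune cells sorted from a mouse melanoma. The genes were chosen by symbol and were followed across dendritic cell (DC), monocyte, macrophage, NK cell and T cell classes and across the spatial barcodes of the tumour. B78ChOVA melanoma cells had been injected under the skin of mouse flanks in 50 µl with Matrigel. Tumours were taken at 16 days, cut live into sections of about 160 µm and labelled by ZipSeq, in which patterned light lets DNA barcodes attach to cells of an illuminated area before the tissue is dissociated. The 2 samples hold the mRNA and the barcodes of 1 set of cells, so there was no untreated group and no replicate. The mouse strain, the number of tumours and the region behind each barcode, named ZC1, ZC2 and ZC3, are not stated by the sources at hand.

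CXCL16 is unusual among chemokines in being made as a transmembrane protein that carries its chemokine domain on a stalk. On the surface of a cell it can hold cells that bear CXCR6, and after cleavage by ADAM10 or ADAM17 it acts as a soluble attractant. CXCR6 is a receptor of activated and tissue-resident T cells and of some innate lymphocytes, and in tumours it is known for keeping effector CD8 T cells close to CXCL16-expressing dendritic cells, which also present interleukin 15.

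Levels are UMI counts summed over the cells of a class and given as CPM, the count scaled by the total UMIs of the class, with a 95% Poisson interval in parentheses. With 1 library these intervals cover counting error only, not the spread between cells or tumours, and no test was possible. A difference is called large where it passes 1.5-fold. The 4236 cells had a median of 23132 gene UMIs. They fell into 22 clusters, made without the 4 genes, and classes named by marker genes carry the ending -like. Every marker of its own list was detected in each of the 11 named classes. The cluster led by Ly6c2 and Il1b (532 cells) lay between the monocyte and macrophage lists and stays unnamed, and 222 cells in which T cell receptor and C1q genes were both high are called mixed. Doublets were not called. Macrophage-like cells made up 54.8% of all cells. The orders of levels below leave out pDC-like (15 cells) and B-like cells (17 cells), whose Adam10 levels were 62.6 (35.0 to 103) and 21.9 (2.65 to 79.0) CPM.

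In the GENCODE annotation of GRCm38, Cxcl16 (ENSMUSG00000018920) lies on the minus strand of chromosome 11 from 70453983 to 70459984. Of its 3021 exonic bases 552 are shared with Zmynd15 on the other strand. Cxcr6 (ENSMUSG00000048521, chromosome 9, 123806475 to 123811760, plus strand) lies wholly inside Fyco1 on the minus strand, and their exons share 0 bases. Adam10 (ENSMUSG00000054693) lies on chromosome 9 from 70678997 to 70780229 on the plus strand. Adam17 (ENSMUSG00000052593, chromosome 12, 21323509 to 21373632, minus strand) shares 311 exonic bases of 7154 with Iah1 on the other strand. Whether counting used the strand is not stated, so reads from these shared bases cannot be told apart.

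The promoters are shown because the receptor and sheddase genes, whose levels below are restricted or broad, also differ in base composition upstream of the start. Each is the 250 bases before the start site in RefSeq on GRCm38.p6, printed on the gene's strand with CG pairs in capitals. RefSeq sequences matched 3 of the 4 genes.
Cxcr6, chr9:123806227-123806476, plus strand: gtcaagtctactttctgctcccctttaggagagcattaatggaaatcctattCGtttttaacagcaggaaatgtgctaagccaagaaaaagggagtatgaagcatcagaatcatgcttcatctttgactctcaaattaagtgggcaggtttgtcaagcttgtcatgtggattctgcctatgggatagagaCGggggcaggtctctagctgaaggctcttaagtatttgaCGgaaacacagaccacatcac
Adam10, chr9:70678732-70678981, plus strand: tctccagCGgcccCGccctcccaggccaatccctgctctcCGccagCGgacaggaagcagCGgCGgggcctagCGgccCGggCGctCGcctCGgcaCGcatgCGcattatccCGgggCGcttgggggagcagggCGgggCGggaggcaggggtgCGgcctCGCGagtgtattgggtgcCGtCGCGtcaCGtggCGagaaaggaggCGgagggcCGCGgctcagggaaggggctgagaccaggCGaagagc
Adam17, chr12:21373633-21373882, minus strand: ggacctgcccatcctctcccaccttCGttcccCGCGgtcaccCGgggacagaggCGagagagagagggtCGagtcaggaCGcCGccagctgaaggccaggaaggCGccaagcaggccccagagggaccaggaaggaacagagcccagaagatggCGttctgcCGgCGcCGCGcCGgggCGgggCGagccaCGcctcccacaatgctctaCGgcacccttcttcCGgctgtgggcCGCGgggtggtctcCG
The Cxcr6 promoter held 3 CG pairs and was 43.6% G and C. Of 32841 promoters of the same length, with a median of 6 CG pairs, 37.8% held as few. Adam10 held 29 CG pairs at 74.0% G and C, and Adam17 held 23 at 70.4%, counts reached by 6.78% and 13.3% of promoters. The letters GGGCGG, searched on both strands and containing a CG pair themselves, were found in both sheddase promoters and in 32.7% of all promoters. TGTGGT, the core letters of Runt-family sites, was found in the Cxcr6 promoter and in 14.05% of all. TATAAA and TTCNNNGAA were in none of the 3, against 12.4% and 7.02% of all. These matches describe letters only.

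Cxcl16 was a gene of the myeloid classes and was highest in migratory DC-like cells, the mature DCs marked by Ccr7, Fscn1 and Ccl22. Its level was 993 CPM (926 to 1064) in 43 migratory DC-like cells, 676 (659 to 693) in the Ly6c2 Il1b cluster and 631 (625 to 637) in 2320 macrophage-like cells. It was 343 (322 to 364) in 141 cDC2-like, 251 (233 to 269) in 294 monocyte-like and 235 (210 to 262) in 46 cDC1-like cells. Each step of this order was beyond counting error except the last, where the monocyte-like to cDC1-like ratio was 1.07 (0.935 to 1.22).

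T and NK classes held little Cxcl16. The level was 20.9 CPM in Treg-like, 19.3 in CD8 T-like, 17.0 in CD4 T-like and 13.2 in NK-like cells, and no neighbours among these differed beyond counting error. The RNA of nearly empty droplets held Cxcl16 at 501 CPM. Scaled to the C1q transcripts found in each class, this free RNA alone would give 17.5, 11.4, 17.3 and 13.9 CPM. The measured level was above this in CD8 T-like cells (14.9 to 24.6), and in the other 3 classes the interval included it. The same scaling gave 94.3 CPM in migratory DC-like cells, against the 993 measured.

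**Figure D1:**
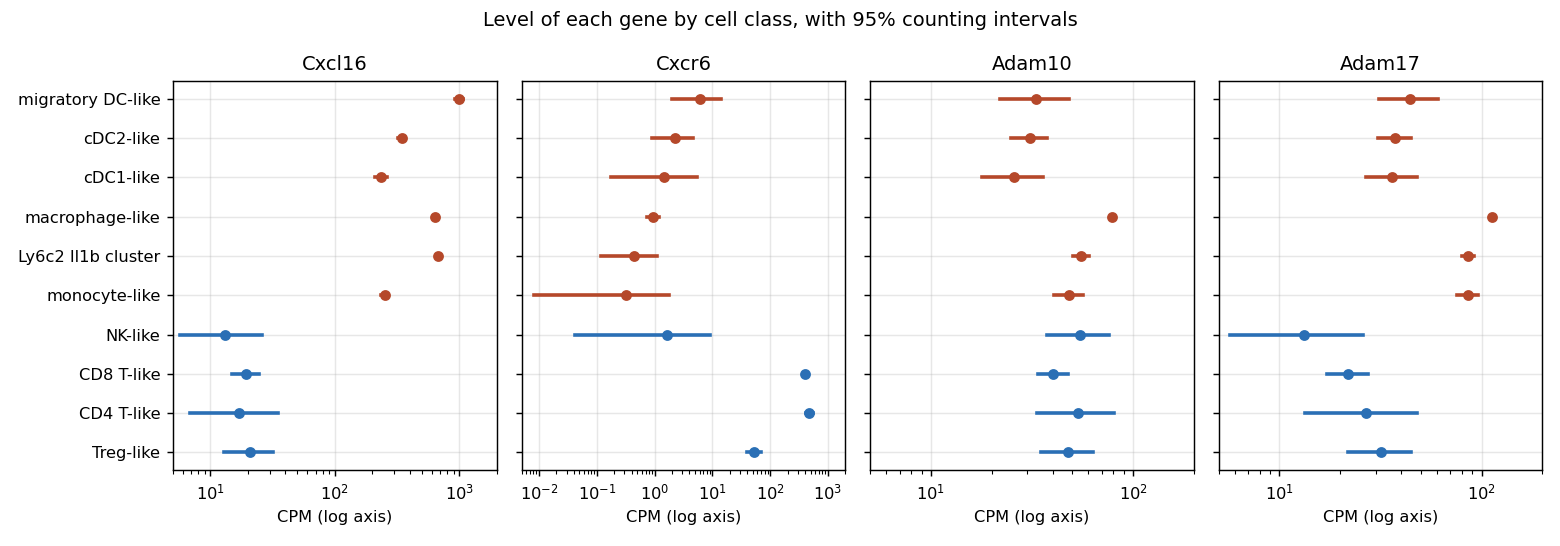
CPM of each gene on a log axis by class, with points for the level and bars for 95% counting intervals; myeloid classes are red and lymphocyte classes blue. Cxcl16 and Cxcr6 separate the myeloid from the T cell classes, whereas Adam10 ranges only from 25.8 to 78.7 CPM.

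The rank of the migratory DC-like cells was also seen per cell at equal depth. After thinning every cell to 1000 UMIs, 67.4% (exact interval 51.5% to 80.9%) of migratory DC-like cells held a Cxcl16 UMI. The share was 45.5% in macrophage-like cells, 43.0% in the Ly6c2 Il1b cluster, 27.0% in cDC2-like, 21.7% in cDC1-like and 12.9% in monocyte-like cells. It was 1.33% in NK-like cells, whose level did not differ from that of free RNA beyond counting error, and 0.727% in CD8 T-like cells. At this depth 13.95% of migratory DC-like cells held 3 or more Cxcl16 UMIs, against 4.14% of macrophage-like cells. Macrophage-like cells held 77.0% of the 60975 Cxcl16 UMIs of all cells, beside 67.2% of all gene UMIs. Migratory DC-like cells held 1.33% of the Cxcl16 UMIs, beside 0.736% of all gene UMIs.

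**Figure D2:**
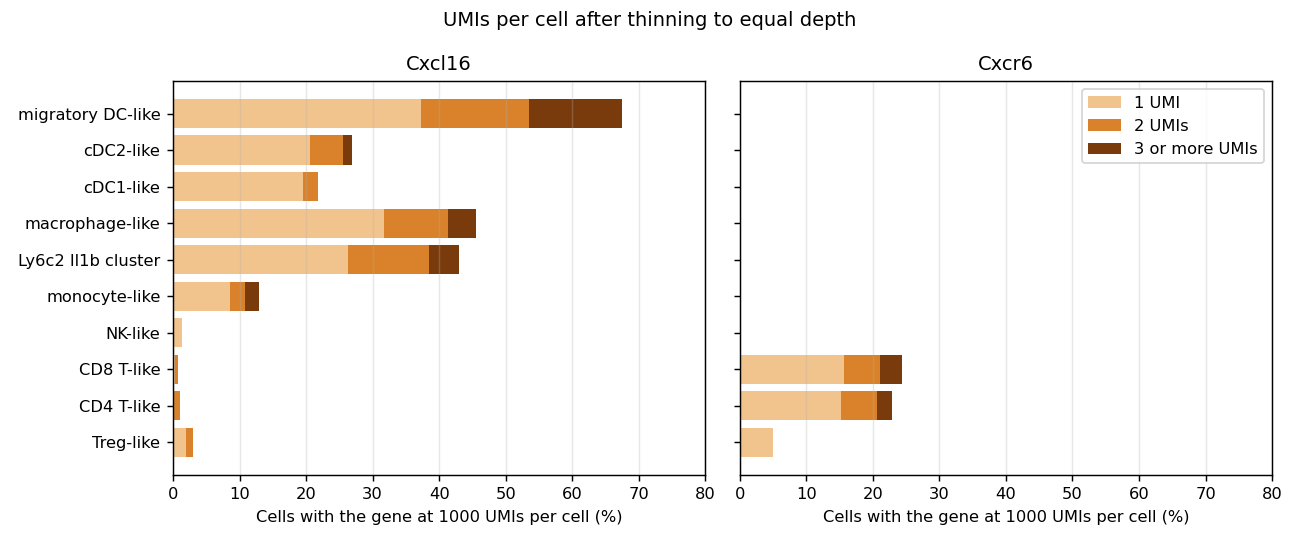
Share of cells with 1, 2 or 3 and more UMIs of Cxcl16 (left) and Cxcr6 (right) after thinning each cell to 1000 UMIs, by class. Cxcl16 reaches 67.4% of migratory DC-like cells and Cxcr6 24.4% of CD8 T-like cells, with 0 Cxcr6-positive cells of 75 NK-like cells.

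Cxcl16 differed between macrophage-like clusters, but by less than between classes. It was highest in the Mmp12 Arg1 cluster (827 CPM, 365 cells). The leading genes of that cluster include Hmox1, Slc2a1 and Ndrg1 of the stress and low-oxygen response. They also include the heat shock genes Hspa1a and Hspa1b, listed below as dissociation stress genes. The interferon-marked Cxcl10 Ifit3 cluster held 714 CPM and the Ccl8 Vcam1 cluster 700, which did not differ beyond counting error. The lowest was the Retnla Ear2 cluster at 408, so that the ends of the range differed 2.02-fold (1.92 to 2.14). The Retnla Ear2 cluster and the Ccl12 Ccl7 cluster each have 1 marker of another class among their 10 leading genes. Only the Ccl8 Vcam1 cluster has a macrophage marker there. Without the Retnla Ear2 cluster the lowest was the Ccnb2 Cdc20 cluster at 537. The remaining clusters lay between 537 and 651 CPM. Against all other macrophage-like cells, Cxcl16 in the Mmp12 Arg1 cluster was 1.37-fold (1.33 to 1.40), under the 1.5-fold limit that 40.4% of genes passed in that comparison. In the Retnla Ear2 cluster it was at 0.635-fold (0.603 to 0.668) of the other macrophage-like cells, past a limit that 32.9% of genes passed.

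**Figure D3:**
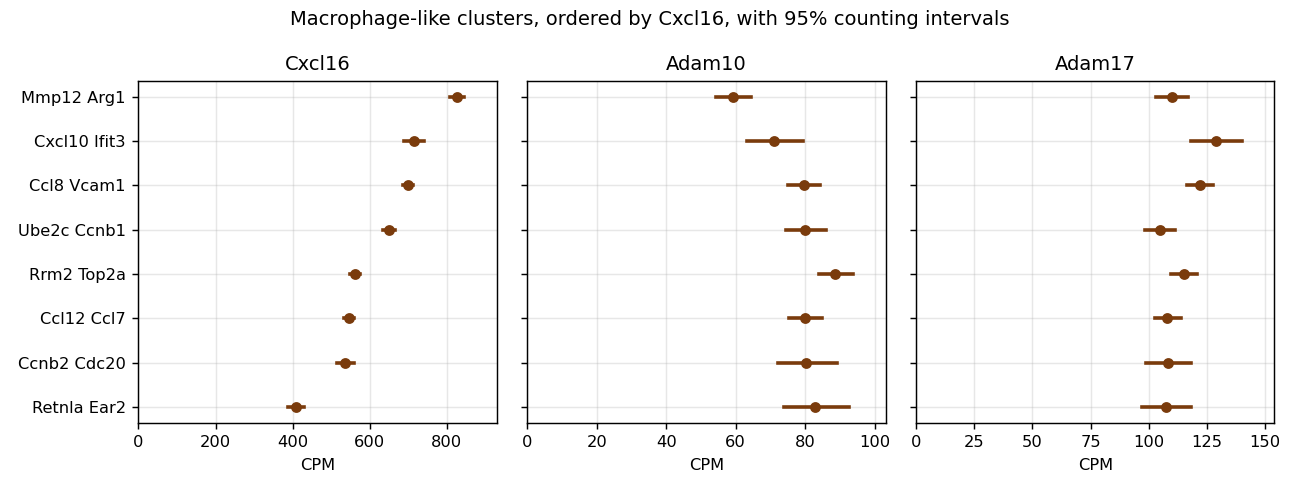
Cxcl16, Adam10 and Adam17 in CPM, from 0, in the 8 macrophage-like clusters ordered by Cxcl16, with 95% counting intervals. Cxcl16 spans 408 to 827 CPM, while Adam17 stays between 105 and 129 and Adam10 is lowest (59.1) in the cluster with most Cxcl16.

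Cxcl16 was 2.52-fold (2.35 to 2.71) higher in macrophage-like than in monocyte-like cells, and in the Ly6c2 Il1b cluster 2.70-fold (2.50 to 2.91). In the first comparison 50.8% of genes passed 1.5-fold either way and in the second 32.4%. The step from monocyte to macrophage depended on where the Ly6c2 Il1b cluster was placed: counted as monocyte-like, it reduced the ratio to 1.11. Adam10 was 1.64-fold (1.39 to 1.94) and Adam17 1.32-fold (1.17 to 1.4997) higher in macrophage-like than in monocyte-like cells. Between the Ly6c2 Il1b cluster and monocyte-like cells the sheddases differed little, at 1.15-fold (0.956 to 1.39) for Adam10 and 1.00-fold (0.873 to 1.16) for Adam17.

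Cxcr6 was highest in the CD4 T-like and CD8 T-like classes. Its level was 473 CPM (409 to 544) in 92 CD4 T-like and 405 (384 to 426) in 275 CD8 T-like cells, a ratio of 1.17 (1.00 to 1.36) where 44.6% of genes passed 1.5-fold. Treg-like cells, the Foxp3-marked regulatory T cells, held 52.7 (39.5 to 68.9). NK-like cells held a single Cxcr6 UMI over 75 cells, 1.65 CPM. Every myeloid class with at least 30 cells was at or below 6.14 CPM, the value of migratory DC-like cells, where 1 cell held all 5 UMIs.

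The step from CD8 T-like to Treg-like cells was 7.68-fold (5.84 to 10.3) and that from CD4 T-like to Treg-like cells 8.98-fold (6.60 to 12.4). In these comparisons 26.9% and 39.1% of genes passed 1.5-fold. Neither sheddase passed it, with Adam10 at 0.841-fold and Adam17 at 0.690-fold in CD8 T-like over Treg-like cells. The Cxcr6 ratio of CD8 T-like to NK-like cells was 245, with a wide interval (43.9 to 9694) because it rests on that single UMI, where 34.5% of genes passed.

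At 1000 UMIs per cell, 24.4% (19.4% to 29.9%) of CD8 T-like, 22.8% (14.7% to 32.8%) of CD4 T-like and 4.95% (1.63% to 11.2%) of Treg-like cells held a Cxcr6 UMI. The share was 0.129% of macrophage-like cells, which stand for background, and 0 of 75 NK-like cells. For this 0 the limit of 3 counts, which is not the exact interval, corresponds to a share of 4%. CD8 T-like cells held 59.3% of the 2330 Cxcr6 UMIs, the mixed cells 25.8% and CD4 T-like cells 8.37%. Of all gene UMIs these sets held 3.09%, 7.58% and 0.373%. In the CD4 T-like cluster the 52 cells with a Cd4 UMI and no gamma delta receptor UMI held Cxcr6 at 499 CPM, and the 35 cells with neither held 405. The 3 cells with a gamma delta receptor UMI and no Cd4 held 876 CPM, from 13 UMIs of which 1 cell gave 61.5%. The 2 cells with both held 121 CPM, from 1 UMI.

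Within CD8 T-like cells Cxcr6 differed between the clusters. The Gzmb Xcl1 cluster (133 cells), with granzyme B and the chemokine Xcl1 among its leading genes, held 452 CPM (426 to 478). The Ccl5 Ctsw cluster (142 cells) held 249 (216 to 286), a ratio of 1.81 (1.56 to 2.12) where 48.3% of genes passed 1.5-fold. Their median depths were 14658 and 5555 UMIs, and at equal depth 32.3% and 16.9% of their cells held a Cxcr6 UMI. The clusters differed widely in other genes. Havcr2 (TIM-3) was 13.9-fold, Pdcd1 (PD-1) 7.11-fold and Prf1 (perforin) 9.48-fold higher in the Gzmb Xcl1 cluster. Tcf7 (TCF-1) was at 0.1003-fold and Il7r, the interleukin 7 receptor, at 0.0661-fold. In the class as a whole, Cxcr6 was 658 CPM in the 22 cells with a Pdcd1 UMI at equal depth and 378 in the other 253, a ratio of 1.74 (1.49 to 2.01). For Gzmb it was 562 and 325 CPM, and for Ifng 500 and 367. These splits pool both clusters, and no values within each are given. Median depth was 10545 UMIs in the cells with a Pdcd1 UMI and 6829 in those without.

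The 67 CD8 T-like cells with a Cxcr6 UMI at 1000 UMIs were then set against the 208 without, using all UMIs of each cell. Of 7485 genes compared, 637 (8.51%) were higher and 967 (12.9%) lower past 1.5-fold, 21.4% in all. Median depths were 9647 and 6415 UMIs, and 43 of the 67 against 90 of the 208 belonged to the Gzmb Xcl1 cluster. Values within a cluster are given beside the pooled ones for some genes only. Ratios given without a cluster are pooled, and the part of cluster makeup and depth in them was not tested. Within the Gzmb Xcl1 and Ccl5 Ctsw clusters 26.3% and 24.2% of genes passed 1.5-fold.

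Egress and lymph node homing genes came first. Of 6 genes 5 could be compared, 0 were higher and 3 lower past 1.5-fold, and their median ratio was 0.565 against 0.973 over all genes. Ccr7, the receptor for lymph node homing, was 14.9 against 42.9 CPM (ratio 0.348, 0.175 to 0.633). S1pr1, which guides exit from tissue, was at 0.565-fold (0.310 to 0.968). Klf3, a transcription factor, was at 0.542-fold with an interval that includes 1 (0.187 to 1.298). Klf2 and S1pr4, the other genes compared, did not pass 1.5-fold. Within the Ccl5 Ctsw cluster S1pr1 was at 0.531-fold (0.245 to 1.03), and within the Gzmb Xcl1 cluster Ccr7 was at 0.393-fold.

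Of 5 progenitor and memory genes compared, 0 were higher and 3 lower past 1.5-fold, with a median of 0.620. Lef1 was at 0.551-fold with an interval that includes 1 (0.251 to 1.09), Slamf6 at 0.575-fold and Tcf7 at 0.620-fold, whereas Cd27 was 1.35-fold higher. Il7r, the remaining gene compared, did not pass 1.5-fold. Slamf6 was lower within the Gzmb Xcl1 cluster (0.418-fold) and not within the Ccl5 Ctsw cluster (1.13-fold). In CD4 T-like cells split the same way (21 and 71 cells, 23.8% of genes past 1.5-fold), 4 of 4 compared progenitor genes were lower. Tcf7 was 39.6 against 267 CPM (0.149, 0.0396 to 0.395) and Cd27 was at 0.406-fold (0.125 to 1.03).

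Of the 9 tissue residence genes compared, 3 were higher and 0 lower. Prdm1 (Blimp-1) was 57.2 against 26.0 CPM (2.20-fold, 1.48 to 3.24), Itga1 (CD49a) 47.3 against 25.6 (1.84-fold) and Rgs1 569 against 315 (1.81-fold). Cd69 and Nr4a2, on the same list, were at 0.777-fold and 0.670-fold. Itga1 and Rgs1 were higher past 1.5-fold within both clusters, at 2.89-fold and 1.98-fold in the Gzmb Xcl1 cluster and 1.68-fold (0.929 to 2.91) and 1.55-fold (1.23 to 1.95) in the Ccl5 Ctsw cluster. In the CD4 T-like split 0 of 6 residence genes compared passed the limit, and Rgs1 was at 0.866-fold (0.669 to 1.11).

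The exhaustion list, with 8 genes compared, had 4 higher and 1 lower and a median of 1.43. Havcr2 was 112 against 55.1 CPM (2.03-fold, 1.54 to 2.66), Pdcd1 188 against 101 (1.85-fold), Rgs16 1.82-fold and Lag3 1.53-fold. The lowest were Nr4a3 at 0.639-fold (0.302 to 1.23) and Tnfrsf9 (4-1BB) at 0.796-fold. In the Gzmb Xcl1 cluster Havcr2 was 1.86-fold and Pdcd1 1.72-fold. In the Ccl5 Ctsw cluster only 3 of these genes could be compared and all 3 were lower past 1.5-fold, Tnfrsf9 at 0.0921-fold (0.00228 to 0.540), Lag3 at 0.558-fold (0.214 to 1.23) and Tox at 0.645-fold (0.245 to 1.44). The difference between clusters was not tested.

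**Figure D4:**
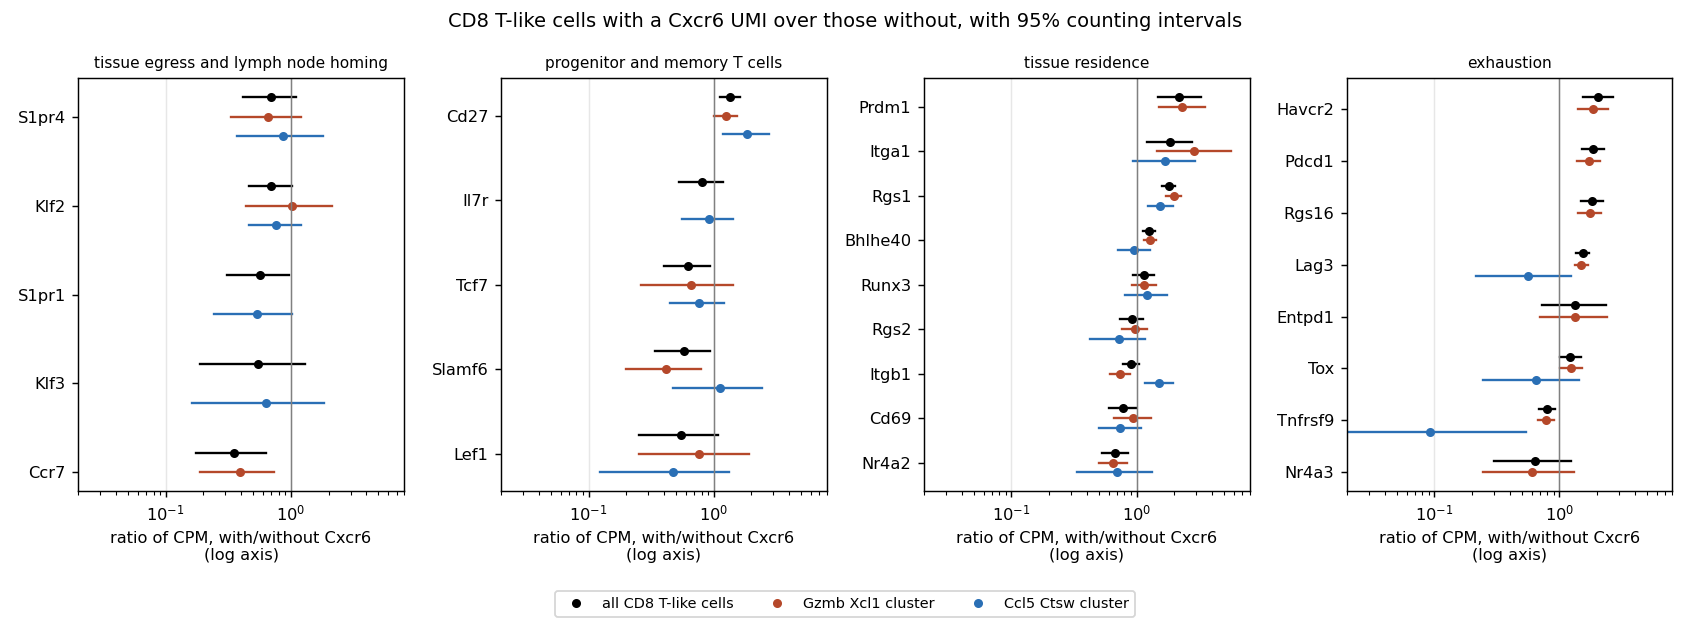
Ratio of CPM in CD8 T-like cells with a Cxcr6 UMI over those without (log axis) for genes of 4 lists, in all cells and within each cluster, with 95% counting intervals. Pooled ratios of Ccr7 and S1pr1 lie left of 1, those of Prdm1, Itga1 and Rgs1 right of 1, and Havcr2, Pdcd1 and Rgs16 could be compared in the Gzmb Xcl1 cluster only; 1 interval (Tnfrsf9, Ccl5 Ctsw cluster) runs past the axis.

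Among cytotoxicity genes Gzmc was 7.86-fold higher, but 65.9% of its UMIs in the cells with Cxcr6 came from 1 cell, and Nkg7 was 1.43-fold. Gzma was at 0.321-fold and Gzmk at 0.553-fold. Of the receptors and signal genes of interleukins 15 and 2, 2 of 9 were higher, Jak3 at 2.24-fold (1.55 to 3.22) and Il2ra at 1.65-fold, and Bcl2 and Stat5a were lowest at 0.646-fold and 0.693-fold (0.447 to 1.04). Of 10 cell cycle genes 3 were lower and 0 higher past 1.5-fold, from Ccnb1 at 0.436-fold and Rrm2 at 0.463-fold up to Mcm5 at 0.843-fold and Tyms at 0.895-fold. Of the dissociation stress genes Hspa1a and Hspa1b were 11.6-fold and 12.2-fold higher, with 55.9% and 79.7% of these UMIs in 1 cell, and Atf3 was at 0.239-fold. Adam10 (44.8 against 38.7 CPM, 1.16-fold, 0.769 to 1.71) and Adam17 (27.4 against 20.3, 1.35-fold, 0.782 to 2.26) did not differ beyond counting error.

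Among genes with at least 100 UMIs that were found in 10% of cells, the 10 highest in cells with Cxcr6 were Gzmc, AY036118, Adam8, Cd4, Igfbp7, Ccl1, Capg, Lxn, Lgals3 and Gpm6b, from 7.86-fold down to 2.34-fold. Adam8, another surface metalloprotease, was 79.6 against 22.2 CPM (3.59-fold, 2.47 to 5.21). It was found in 52.2% against 16.3% of cells, counted over all UMIs and so not at equal depth. Capg, an actin-capping protein, was 627 against 237 CPM (2.65-fold) and Lgals3 (galectin-3) 535 against 227 (2.36-fold). For Ccl1, 1 cell gave 33.8% of the UMIs in cells with Cxcr6 and 1 cell 69.9% in those without. For Cd4 these shares were 26.4% and 25.8%. The 10 lowest were Dapl1, Cxcl10, Mthfd1, Spp1, H2-Ab1, Satb1, Cxcl9, Ftsj3, Tyrobp and Nolc1, from 0.113-fold to 0.310-fold. Satb1, a chromatin organiser of T cells, was 12.4 against 45.2 CPM. Spp1, H2-Ab1, Tyrobp, Cxcl9 and Cxcl10 are also myeloid genes, and 1 cell gave 56.9% of the H2-Ab1 and 53.4% of the Spp1 UMIs in cells without Cxcr6; 13 CD8 T-like cells held C1q at 1000 CPM or more, and the part of myeloid RNA in these ratios was not tested.

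The sheddases were found in every class of the ligand side and the receptor side. Adam10 was highest in macrophage-like cells at 78.7 CPM, followed by 55.3 in the Ly6c2 Il1b cluster, 54.4 in NK-like, 53.4 in CD4 T-like, 48.1 in monocyte-like, 47.7 in Treg-like and 40.1 in CD8 T-like cells. The lowest of these classes were DC-like, with 33.2 in migratory DC-like, 30.8 in cDC2-like and 25.8 in cDC1-like cells. Only the step below macrophage-like cells was beyond counting error (1.42-fold, 1.3 to 1.56), although the ends differed 3.05-fold (2.19 to 4.38).

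Adam17 was more myeloid in its pattern. It was 113 CPM in macrophage-like cells, 85.9 in the Ly6c2 Il1b cluster and 85.6 in monocyte-like cells, then 44.2, 37.3 and 36.1 in migratory DC-like, cDC2-like and cDC1-like cells. Treg-like cells held 31.8, CD4 T-like 26.7, CD8 T-like 21.96 and NK-like 13.2. Macrophage-like over CD8 T-like cells was 5.16-fold (4.11 to 6.56) for Adam17 and 1.96-fold (1.66 to 2.34) for Adam10. In that comparison all 4 genes passed 1.5-fold, as did 52.6% of all genes. Among macrophage-like clusters Adam17 stayed within 1.23-fold (1.11 to 1.36) and Adam10 within 1.501-fold (1.36 to 1.66), lowest in the Mmp12 Arg1 cluster.

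Migratory DC-like cells combined the highest Cxcl16 with low sheddase levels. Against macrophage-like cells Cxcl16 was 1.57-fold (1.47 to 1.69), Adam10 0.421-fold (0.277 to 0.614) and Adam17 0.391-fold (0.273 to 0.541). All 3 passed 1.5-fold, as did 60.7% of genes, with 44.8% lower and 15.9% higher. The Cxcl16 ratio lay under the limit with cells gated one by one on their own marker UMIs (1.42) and without the Ccl12 Ccl7 and Retnla Ear2 clusters (1.49). Against cDC2-like cells, where 51.3% passed, Cxcl16 was 2.90-fold (2.64 to 3.18) while Adam10 (1.08-fold, 0.674 to 1.66) and Adam17 (1.19-fold, 0.792 to 1.74) did not differ beyond counting error. C1q genes, the macrophage markers, summed to 2000 CPM in migratory DC-like cells, against at least 8569 in each macrophage-like cluster.

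The partners that carry the sheddases were unequal between these cells. ADAM10 is escorted by TspanC8 tetraspanins, of which 4 of 6 could be compared. Tspan33 was 152 CPM in migratory DC-like and 21.3 in macrophage-like cells (7.15-fold, 5.91 to 8.59), and Tspan14 was 3.68 and 45.5 (0.0810-fold, 0.0167 to 0.237). Against cDC2-like cells the same genes stood at 3.82-fold and 0.103-fold. Tspan33 was also high in cDC1-like cells at 111 CPM. Rhbdf2, the iRhom that brings ADAM17 to the surface, was 14.7 and 47.3 CPM (0.312-fold, 0.161 to 0.545), and its partner Frmd8 was at 0.907-fold. Timp2, a metalloproteinase inhibitor, was 52.8 and 301 CPM (0.175-fold). Of the other surface ADAM proteases Adam15 and Adam9 were at 0.126-fold and 0.307-fold and Adam8 at 1.19-fold. Nearly empty droplets held Timp2 at 268, Adam15 at 64.0 and Adam9 at 69.5 CPM. The part of this free RNA in the migratory DC-like levels was not tested. In CD8 T-like cells Tspan33 was 1.76 and Rhbdf2 7.03 CPM, and Frmd8 was 59.7 against 25.7 in macrophage-like cells.

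Interleukin 15 is a survival cytokine shown to T cells on Il15ra. Il15 was 63.9 CPM (47.7 to 83.7) and Il15ra 115 in migratory DC-like cells, against 14.5 and 5.35 in macrophage-like cells (4.42-fold, 3.28 to 5.84, and 21.6-fold, 17.0 to 27.1). Against cDC2-like cells the ratios were 16.4 and 23.7. Among myeloid classes monocyte-like cells came next with 46.8 (39.5 to 55.0) and 31.4 CPM, and the Il15 intervals of these 2 classes overlap. Of 6 other mature DC signals compared with macrophage-like cells, 6 were higher and 0 lower, with Ccl22 587-fold and Ccl17 75.1-fold (chemokines for CCR4) and Tnfsf9 and Icam1 1.92-fold and 1.91-fold. Their median was 2.62 against 0.735 over all genes. The list was chosen as signals of mature DCs, and Ccl22 is also a marker that named the class. Ccl22 held 720 UMIs in migratory DC-like and 112 in macrophage-like cells, so it entered through the class where it is high. The count and the median are therefore partly set by the choice of list and are no separate support. Of the interferon gamma response genes 6 of 8 were higher and 0 lower, led by Cd274 (PD-L1) at 4.52-fold and Gbp5 at 4.41-fold. The CXCR3 ligands Cxcl9 and Cxcl10 were instead lower, at 0.276-fold and 0.193-fold, and 5 of 5 scavenger receptors compared were lower.

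Macrophage-like cells were split by Cxcl16 in the same way, but the split separated the gene itself only weakly, at 758 against 528 CPM, which limits what it can show of other genes. The 1056 cells with a Cxcl16 UMI at 1000 UMIs, set against the 1264 without, had 4.04% of 11935 genes past 1.5-fold, at median depths of 29614 and 30922.5 UMIs. The 10 highest were Cxcr4, Acod1, Mmp12, Dnase1l3, Serpina3g, Gbp5, Tnfaip2, Fam46c, Cd22 and Prkar1b. Cxcr4, a chemokine receptor, was 31.6 against 17.8 CPM (1.78-fold, 1.62 to 1.96) and Acod1, the enzyme that makes itaconate, 46.4 against 28.1 (1.65-fold). The 10 lowest were Lipg, Fn1, Rras2, Lsp1, St3gal5, Cbfa2t3, Slc13a3, Hopx, Ear2 and Glipr2. Fn1 (fibronectin) was 47.5 against 111 CPM (0.427-fold). Shares of cells with a Cxcl16 UMI ran from 25.2% in the Retnla Ear2 to 58.0% in the Cxcl10 Ifit3 cluster, so these genes also carry differences between clusters.

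Likeness was measured as Pearson's r of log2(CPM + 1) over the 9 named classes with at least 30 cells, which share 1 library, among 4708 genes. Nearest to Cxcr6 were Gpm6b (0.975), Rbm27, Themis, Gm8369, Cd3g, Trac, Xlr4b, Ccar1, Bcl11b and Pym1 (0.942). Themis, Cd3g, Trac and Bcl11b are T cell genes. Nearest to Cxcl16 were Ptov1 (0.988), Nckap1l, Cttnbp2nl, Basp1, Pgap2, Bcl2a1a, Rtn4, Marcks, Fmnl2 and Ctsh (0.963). Adam17 was most like Ctsb (0.988), Mcfd2, Adgre1, Cd93 and Rnase4, of which Adgre1 encodes the macrophage marker F4/80, and Adam10 was most like Cd84 (0.899), Mocs2, Slc28a2, Ctsd and Glul. Between the members r was 0.763 for Cxcl16 with Adam17 and -0.655 for Cxcl16 with Cxcr6.

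Spatial barcodes were weakly resolved. ZC1, ZC2 and ZC3 made up 15%, 27.3% and 57.7% of barcode UMIs in cells, against 15.6%, 26.4% and 58.0% in nearly empty droplets. A rule of 10 counts and 2 times the next barcode left 16 CD8 T-like and 11 macrophage-like cells in ZC1, too few to compare. Cells were therefore placed by their barcode share relative to that of nearly empty droplets, a rule that had been listed as the alternative. Sets under 20 cells were not compared.

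Among the myeloid sets Cxcl16 passed 1.5-fold between barcodes in monocyte-like and cDC2-like cells. In monocyte-like cells Cxcl16 was 98.8 CPM in ZC1 (42 cells), 215 in ZC2 (53 cells) and 310 in ZC3 (86 cells), with ZC1 over ZC3 at 0.319 (0.226 to 0.440). At equal depth 4.76% (0.582% to 16.2%), 17.0% and 17.4% (10.1% to 27.1%) of these cells held a Cxcl16 UMI, intervals that overlap. C1q genes were also uneven, at 540, 329 and 2299 CPM, and their part in the Cxcl16 values was not tested. Of all genes 19.9% passed 1.5-fold between ZC1 and ZC3 and 17.0% between ZC2 and ZC3. In cDC2-like cells Cxcl16 was 222 CPM in ZC2 (45 cells) and 571 in ZC3 (43 cells), a ratio of 0.390 (0.331 to 0.457) where 17.4% of genes passed. At equal depth 22.2% (11.2% to 37.1%) and 46.5% (31.2% to 62.3%) of these cells held it, intervals that overlap. C1q was 865 and 1238 CPM in the 2 sets of cells. Adam10 and Adam17 in the same cDC2-like sets were at 0.931-fold and 0.891-fold.

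In macrophage-like cells the barcodes differed little. Cxcl16 was 581, 688 and 586 CPM in ZC1, ZC2 and ZC3, with ZC1 over ZC3 at 0.992 (0.957 to 1.03), where 16.0% of genes passed 1.5-fold, and 10.2% did between ZC2 and ZC3. Without the Ccl12 Ccl7 and Retnla Ear2 clusters, whose leading genes include a marker of another class, the values were 705, 723 and 603. In 10 contrasts within macrophage-like clusters the ratios of Cxcl16 ran from 0.903 to 1.15, and 0 of 10 passed 1.5-fold for Cxcl16, Adam10 or Adam17. In the Ly6c2 Il1b cluster Cxcl16 was 570, 624 and 697 CPM, and Adam10 was 44.9, 68.9 and 48.1. There 16.9% of genes passed 1.5-fold between ZC1 and ZC3 and 12.5% between ZC2 and ZC3.

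**Figure D5:**
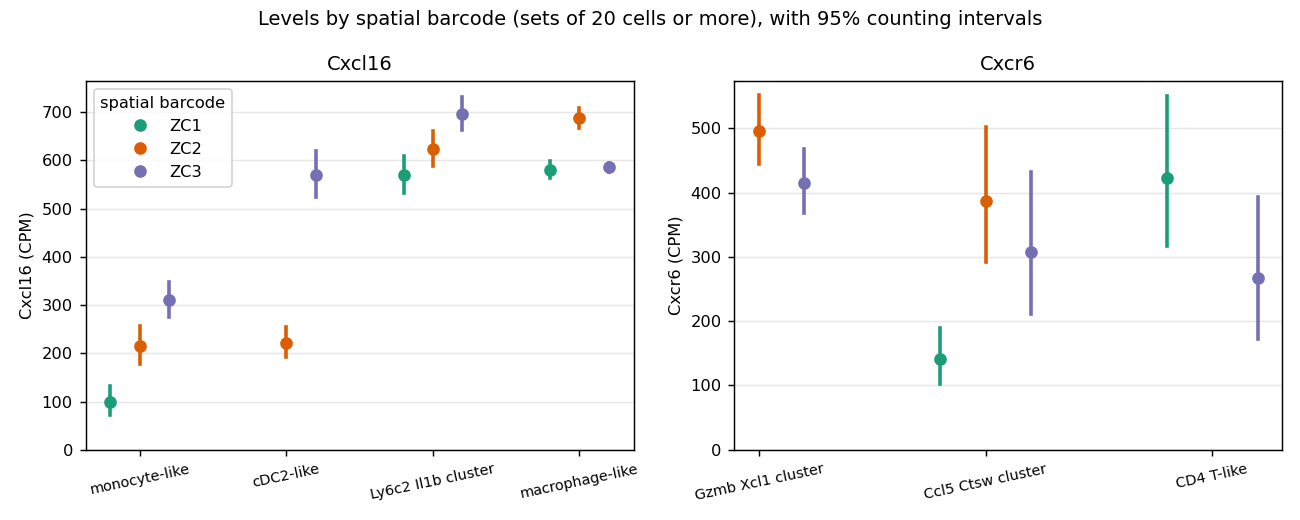
Cxcl16 (left) and Cxcr6 (right) in CPM by set of cells and spatial barcode, with 95% counting intervals; sets under 20 cells are left out. In monocyte-like cells Cxcl16 is 98.8 CPM in ZC1 and 310 in ZC3, and Cxcr6 is lowest in ZC1 in the Ccl5 Ctsw cluster.

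For Cxcr6 the CD8 T-like cells held 325 CPM in ZC1 (75 cells), 477 in ZC2 (57 cells) and 400 in ZC3 (50 cells). ZC1 over ZC3 was 0.811 (0.666 to 0.985), but 1.22 with barcodes 2 times the next and 0.461 as a mean over cells, so no direction can be given for the class. At equal depth 16%, 26.3% and 18% of cells held Cxcr6. The makeup differed: 14 of 75 cells in ZC1 belonged to the Gzmb Xcl1 cluster, against 34 of 57 and 29 of 50, and median depths were 5408, 11106 and 9203.5 UMIs. Between ZC1 and ZC3, 37.9% of genes passed 1.5-fold (17.9% between ZC2 and ZC3). With both clusters pooled, S1pr1 was 5.50-fold and Tcf7 3.31-fold higher in ZC1, and Tnfrsf9 was at 0.213-fold. Within the Ccl5 Ctsw cluster S1pr1 was 1.71-fold (0.888 to 3.63) and Tcf7 1.39-fold (0.807 to 2.51), intervals that include 1. Tnfrsf9 could not be compared there.

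Within the Ccl5 Ctsw cluster Cxcr6 was 141 CPM in ZC1 (61 cells), 387 in ZC2 (23 cells) and 307 in ZC3 (21 cells). ZC1 over ZC3 was 0.459 (0.286 to 0.742), where 22.2% of genes passed 1.5-fold, and ZC1 over ZC2 0.365 (0.241 to 0.550). At equal depth 6, 6 and 3 cells held a Cxcr6 UMI. These are 9.84% (3.70% to 20.2%), 26.1% (10.2% to 48.4%) and 14.3% (3.05% to 36.3%), intervals that overlap. Of all Cxcr6 UMIs of this cluster in ZC3, before thinning, 1 cell gave 30.3%. In the Gzmb Xcl1 cluster ZC2 held 496 and ZC3 416 CPM (1.19-fold, 1.01 to 1.40). CD4 T-like cells held 422 in ZC1 (31 cells) and 267 in ZC3 (21 cells), a ratio of 1.58 (0.968 to 2.65) whose interval includes 1.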

How the data were processed

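Per the labels and the file headers, the authors deposited 1 unfiltered matrix of raw UMI counts of both libraries, made with Cell Ranger 4.0.0 on mm10 per the submitters' processing notes; the settings of that counting are not stated. The matrix held 117528298 gene UMIs and 14355102 spatial UMIs. Of the 4476 barcodes with 1000 UMIs or more, 4236 that also had 500 genes and no more than 10% of UMIs from mitochondrial genes were kept as cells. Counts scaled to 10000 were log transformed, reduced to 2000 variable genes without the 4 members (1999 used), 30 components and 15 neighbours, and clustered by Leiden at resolution 1. A cluster took the name of its leading marker list of 19, unless the next list scored 90% of it or CD3 and C1q genes both reached 10% of the highest cluster, rules added after the data were seen. Free RNA is the sum of 68497 barcodes with 10 to 100 UMIs. A gene entered a comparison once the sets together held 30 of its UMIs and the smaller was expected to hold 3; a level of 0 is set against 3 counts. Shares carry exact Clopper-Pearson and ratios exact conditional binomial intervals at 95%, for counting error only. Splits used cells thinned to 1000 UMIs. The relative barcode rule needed 30 spatial UMIs and 1.5 times the next barcode.

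The members and gene lists were chosen with earlier results of these data known. Of each list the 2 highest and 2 lowest ratios were named where a comparison is given in full, and for the splits also the 10 highest and 10 lowest genes among those reaching 100 UMIs and found in 10% of cells; other list genes were named after their values were seen. Of the 18 lists 1 gene, Cd244a, was missing, and 1 gene of the egress list is not reported here and was left out of its counts. The code was tested on simulated data. Clustering used scanpy 1.11.5 with igraph 0.11.9, scikit-learn 1.9.0 and anndata 0.12.19; the intervals used scipy 1.17.1, and tables and plots numpy 2.4.6, pandas 2.3.3 and matplotlib 3.10.9 in Python 3.11.15. Alternatives changed the cell filters, clustering, gating, averaging, free RNA, thinning and the barcode rule.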

Additional observations from a re-analysis of the deposited data

How the results depend on the processing

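No paired analysis was possible because both samples are libraries of the same cells and no replicate exists. Adam10 and Adam17 in macrophage-like over CD8 T-like cells stayed at 1.82 to 2.10 and 4.47 to 5.54 under 11 alternatives each. Cxcr6 in CD8 T-like over NK-like cells lay between 69.8 (a lower bound, with cells gated one by one) and 273, and was 80.6 with free RNA subtracted. Cxcl16 in migratory DC-like over macrophage-like cells was 1.42 with gated cells and otherwise up to 1.58. Cxcl16 in macrophage-like over monocyte-like cells was 2.14 at 500 UMIs and 250 genes, 2.12 at 5% mitochondrial UMIs, 1.62 at resolution 2, 1.92 with seed 1, 2.02 with gated cells, 3.47 as a mean over cells and 1.11 with the Ly6c2 Il1b cluster as monocyte-like. Cxcr6 in CD8 T-like cells of ZC1 over ZC3 was 0.461 as a mean over cells and 1.22 with barcodes 2 times the next. Cxcl16 in macrophage-like cells of ZC1 over ZC3 was 1.08 at 5% mitochondrial UMIs, 1.07 at resolution 2, 1.12 with gated cells, 0.888 as a mean, 0.928 with barcodes 2 times the next and 1.17 without the 2 clusters. The 1604 genes of the Cxcr6 split became 1054 at 500 UMIs and 250 genes, 969 when thinned to 2000 UMIs and 561 with at least 100 UMIs per gene. Cxcl16 in monocyte-like cells of ZC1 over ZC3 was 0.465 as a mean, 0.184 with barcodes 2 times the next and 0.610 with gated cells. The ratios in cDC2-like cells (0.378 to 0.391) and in the Ccl5 Ctsw cluster (0.377 to 0.547) kept their direction under 4 and 3 alternatives chosen after seeing the data. Apart from the barcode rules, where the alternative's construction changes the cells, the cause of these changes was not tested. A rule of 50 counts and 4 times the next barcode left 1 CD8 T-like cell in ZC1 and gave no ratio.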

Other observations

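Zmynd15, which shares exonic bases with Cxcl16 on the other strand, was also highest in migratory DC-like cells among the classes, but differed in order below them. Its level was 533 CPM in migratory DC-like cells, 194 in macrophage-like cells, 308 in the Mmp12 Arg1 cluster and 69.3 in the Retnla Ear2 cluster. It was 57.4 in the Ly6c2 Il1b cluster, where Cxcl16 was 676, and 17.3 in monocyte-like cells. How many of these UMIs come from the shared bases was not tested.

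The mixed cells held both sides of the pair, with Cxcl16 at 550 CPM and Cxcr6 at 71.6 CPM. Their median depth was 32703 UMIs. At equal depth 40.5% held Cxcl16 and 7.21% held Cxcr6. By barcode their Cxcr6 was 34.5 CPM in ZC1, 96.3 in ZC2 and 53.4 in ZC3. Whether they are doublets was not tested.

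Among rare cells, 9 Cxcr6 UMIs in 15 pDC-like cells came from 1 cell. The cluster led by the melanocyte genes Dct and Pmel held Cxcl16 at 22.6 CPM.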
